A study of Homo sapiens with 10 samples.

Results

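YAP1, its paralog WWTR1 (which encodes TAZ), the DNA-binding factors TEAD1 and TEAD4, and 6 genes known as their transcriptional targets (CCN1, CCN2, ANKRD1, AMOTL2, LATS2 and CRIM1) were followed in RNA sequencing of cisplatin-sensitive and cisplatin-resistant bladder cancer cells. The 10 genes were listed by name, with earlier results of these data known, and were found by Ensembl identifier among the 61533 genes of the count tables. All 10 were among the 16181 genes with enough reads to be tested. The 2 lines compared were T24, a line from a human bladder cancer, and T24R2, which was derived from T24 cells through successive rounds of cisplatin, a platinum drug that crosslinks DNA. Each line had 5 libraries of total RNA, all taken at day 3, and the labels describe growth to 3 days confluence in the same serum-containing medium for both lines. The study's methods keep T24R2 in cisplatin, whereas the growth medium in the labels lists no drug, so whether T24R2 was exposed at harvest is unsettled, and the line and the drug cannot be told apart. T24R2 is 1 derived line, and nothing in the sources used here says that the 5 replicates were separate cultures, so p-values measure the spread between these libraries, which may be technical.

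YAP and TAZ are coactivators without a DNA-binding domain of their own. They reach genes mainly through TEAD factors, often at sites where AP-1 also binds. The Hippo pathway holds them back: the kinases MST1 and MST2 activate LATS1 and LATS2, which phosphorylate YAP and TAZ, so that they stay in the cytoplasm or are degraded. In epithelial cells their activity is known to respond to cell density, attachment and stiffness of the surroundings. This control acts on the proteins, whereas the values here are messenger RNA levels, which do not measure phosphorylation, localization or the amount of protein.

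Library totals lay between 9257843 and 10840954 reads counted to genes. Levels are given as CPM (counts scaled to a common library size) after TMM scaling, a correction for differences in RNA composition between libraries. A gene was called higher or lower in T24R2 when edgeR's quasi-likelihood test gave a Benjamini-Hochberg adjusted p under 0.05 over all 16181 genes and the log2 fold change passed 0.5 in either direction. By that rule 24.9% of tested genes were called higher and 26.5% lower, so a called gene was common in this comparison. The median log2 fold change of all tested genes was 0.01 with TMM scaling and 0.18 with no scaling beyond library size, where 5206 genes were called higher and 3431 lower instead of 4027 and 4282. Of the bladder and epithelial markers, KRT7, KRT8 and KRT18 were abundant in both lines. KRT19 averaged 267 CPM in T24 and had at most 3 counts in any T24R2 library, GATA3 averaged 22.1 and 0.214 CPM, and the uroplakins UPK1A, UPK1B and UPK3A had at most 7 counts in any library. The uroplakin UPK2 averaged 9.90 CPM in T24 and 2.74 CPM in T24R2 and was called lower. In T24, 7 of the 11 epithelial markers averaged at least 1 CPM and their sum was 4868 to 5601 CPM, against 4 of 11 and 2990.1 to 3190.4 CPM in T24R2. The leukocyte markers summed to 0.540 to 1.79 CPM in T24 and 0.197 to 1.34 CPM in T24R2. The 5 fibroblast markers summed to 5.62 to 7.27 CPM in T24, with PDGFRA at 0, and to 0.954 to 2.02 CPM in T24R2, with DCN, LUM and COL1A2 at 0. The 4 endothelial markers summed to 225 to 278 CPM in T24 and 1.604 to 2.495 CPM in T24R2; nearly all of the T24 sum was the cadherin CDH5 (239.0 CPM on average), and KDR was at 0 in T24. The part of these marker differences in the following results was not tested. In bulk RNA, fewer expressing cells and less RNA per cell cannot be told apart.

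Of the 10 genes, 1 was called higher in T24R2 (CRIM1) and 5 were called lower (ANKRD1, WWTR1, TEAD1, CCN1 and LATS2). The other 4 (YAP1, TEAD4, CCN2 and AMOTL2) were not called. Among all tested genes 24.9% were called higher and 26.5% lower. The log2 fold changes ran from -4.75 for ANKRD1 to 0.80 for CRIM1, with a median of -0.63, against the median of 0.01 over all tested genes. The libraries of the lines did not overlap for 2 genes that were higher in T24R2 and 6 that were lower; over all tested genes 29.9% were separated in this way as higher and 31.3% as lower. With the minimum raised to a log2 fold change of 1, which called 11.9% of all genes higher and 14.2% lower, 0 of the 10 genes were called higher and 3 lower (ANKRD1, WWTR1 and TEAD1). With no minimum, where 37.9% of all genes were called higher and 37.6% lower, YAP1 joined the higher genes for 2 in all, and TEAD4 and CCN2 joined the lower genes for 7 in all. The plot of CPM by library shows each of these values.

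**Figure D1:**
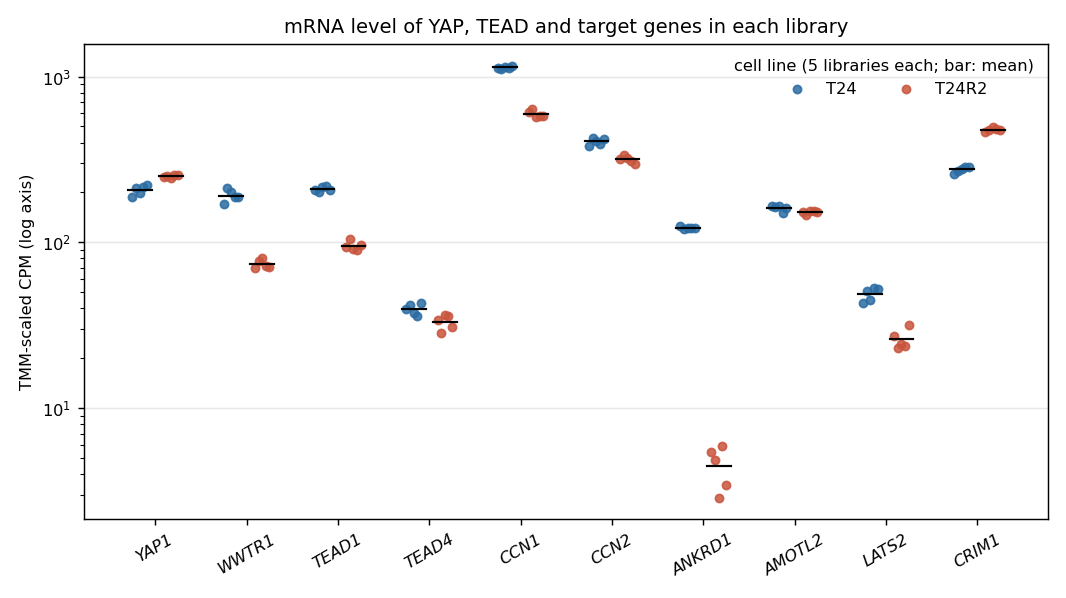
TMM-scaled CPM (log axis) of the 10 genes in each of the 5 T24 (blue) and 5 T24R2 (red) libraries, with a bar at each mean. ANKRD1 lies near 122 CPM in T24 and between 2.88 and 5.88 CPM in T24R2, while the AMOTL2 and TEAD4 libraries of the lines overlap.

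The coactivators moved apart. WWTR1 (ENSG00000018408.15, chr3:149517235-149736714, minus strand, hg38) fell to 38.8% of its T24 level, and YAP1 (ENSG00000137693.14, chr11:102110447-102233424, plus strand) stood at 121% without passing the minimum fold change. WWTR1 was at 169, 212, 201, 187 and 187 CPM in T24 replicates 1 to 5, and at 69.9, 77.6, 80.3, 71.5 and 70.9 CPM in T24R2 replicates 1 to 5. Every T24R2 library was thus under every T24 library. The means were 191 ± 16.1 and 74.1 ± 4.62 CPM (SD, n = 5 per line), a log2 fold change of -1.37 (SE 0.06, edgeR adjusted p = 9.89e-24). YAP1 was at 187, 213, 199, 216 and 222 CPM in T24 and at 247, 251, 244, 254 and 255 CPM in T24R2. The lowest T24R2 library was above the highest T24 library, and the T24 libraries were spread more widely than those of T24R2. The means were 207 ± 14.3 and 250.25 ± 4.69 CPM (SD, n = 5), a log2 fold change of 0.27 with a 95% interval of 0.18 to 0.36 (edgeR adjusted p = 1.92e-06).

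Per kilobase of annotated exon, YAP1 and WWTR1 together gave 55.7 ± 3.56 CPM per kb in T24 and 48.5 ± 0.62 in T24R2 (SD, n = 5). YAP1 made up 59.0 ± 1.94% of that sum in T24 and 81.7 ± 1.12% in T24R2. Within a library the ratio of WWTR1 to YAP1 was 0.696 on average in T24 and 0.223 in T24R2, and its log2 value fell by 1.64, from -0.52 ± 0.12 to -2.16 ± 0.11. The highest T24R2 library (-2.005) was under the lowest T24 library (-0.65). An exact two-sided permutation test of this difference gave p = 0.00794, the smallest that 5 libraries against 5 allow. Every T24R2 library was lower for WWTR1 and higher for YAP1, so the ratio had to separate fully. The test thus adds no support beyond the single genes. The ratio within a library does not depend on how libraries are scaled to each other. Values per kilobase divide by all annotated exon bases of a gene, and the length of the transcripts expressed was not measured. Sums, shares, ratios and orders of different genes per kilobase, here and below, therefore depend on the annotated lengths. The difference of a log2 ratio between the lines does not.

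The coactivators have antisense neighbours whose reads may not be separable. The library kit is not said in the sources used here to keep strand, while the reads were counted on 1 strand, and reads from a gene and from an antisense partner cannot then be told apart. Genes annotated on the opposite strand cover 10.1% of the exon bases of YAP1 and 9.05% of those of WWTR1. WWTR1-AS1, the antisense gene inside WWTR1, had 257 to 337 counts per T24 library and 108 to 180 per T24R2 library, with a log2 fold change of -1.34 (SE 0.11). With every count of the overlapping antisense genes taken off, an alternative for single genes chosen after seeing the data, the log2 ratio of mean CPM was -1.37 for WWTR1 and 0.27 for YAP1, and the lines still did not overlap.

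TEAD1, which had the highest level per kilobase of the 4 TEAD genes in T24, was called lower in T24R2, and TEAD4 was not called. TEAD1 (ENSG00000187079.20, chr11:12674421-12944737, plus strand) was at 206, 202, 217, 218 and 206 CPM in T24 replicates 1 to 5 and at 93.04, 105, 91.0, 89.7 and 96.1 CPM in T24R2. No library of one line reached the range of the other. The means were 209.8 ± 6.84 and 94.98 ± 6.13 CPM (SD, n = 5), a log2 fold change of -1.14 (SE 0.05, edgeR adjusted p = 5.55e-23). TEAD4 (ENSG00000197905.10, chr12:2959330-3040676, plus strand) was at 39.4, 42.1, 37.5, 36.0 and 42.8 CPM in T24 and at 34.1, 28.5, 36.5, 35.9 and 30.7 CPM in T24R2. The ranges overlapped, since T24R2 replicate 3 was above T24 replicate 4. The log2 fold change of TEAD4 was -0.26 with a 95% interval of -0.41 to -0.10 (edgeR adjusted p = 0.00314), and an exact two-sided permutation test of the CPM values gave p = 0.0159.

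The other TEAD genes were called lower as well. TEAD2 fell from 22.6 ± 2.001 to 10.8 ± 1.47 CPM (log2 fold change -1.07, edgeR adjusted p = 1.57e-11) and TEAD3 from 35.4 ± 1.43 to 19.5 ± 1.79 CPM (-0.86, adjusted p = 3.31e-12; SD, n = 5). The 4 TEAD genes summed to 56.2 ± 1.39 CPM per kb in T24 and 33.4 ± 1.33 in T24R2, with no overlap between the libraries of the lines. TEAD1 held 34.9 ± 1.69% of that sum in T24 and 26.6 ± 2.73% in T24R2, and TEAD4 30.9 ± 1.86% and 43.5 ± 2.93%. The order of the 4 levels per kilobase was TEAD1, TEAD4, TEAD3 and TEAD2 in T24 and TEAD4, TEAD1, TEAD3 and TEAD2 in T24R2, and neighbours in either order did not overlap across libraries. The log2 ratio of TEAD4 to TEAD1 was -0.18 ± 0.15 in T24 and 0.71 ± 0.24 in T24R2 (SD, n = 5), below 0 in every T24 library and above 0 in all 5 of T24R2 (p = 0.00794, exact permutation test, two-sided). Genes on the opposite strand cover 10.7% of the exon bases of TEAD2 and none of TEAD1, TEAD3 or TEAD4.

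The VGLL genes encode cofactors that bind TEADs at the surface used by YAP and TAZ. VGLL1 and VGLL2 had 0 counts in all 10 libraries, which allows up to 3 counts, or 0.260 to 0.343 CPM, per library (counting error only). VGLL4, known to compete with YAP for TEADs, fell from 61.3 ± 4.003 to 39.7 ± 2.28 CPM (log2 fold change -0.63, edgeR adjusted p = 2.85e-11). With no scaling beyond library size its log2 fold change was -0.46, short of the minimum, and 23.8% of its exon bases lie under genes on the opposite strand. VGLL3 averaged 43.2 ± 5.67 CPM in T24 and 55.1 ± 3.47 CPM in T24R2 (0.35, adjusted p = 4.87e-05) and was not called, though it passed the minimum without scaling, at 0.51. Of the 4 tested genes of this group, TEAD2, TEAD3, VGLL3 and VGLL4, 0 were thus called higher and 3 lower. The shares over all tested genes were 24.9% higher and 26.5% lower.

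Among the secreted matricellular targets, CCN1 fell to 52.5% of its T24 level and CCN2 was at 78.1%. CCN1 (CYR61, ENSG00000142871.18, chr1:85580761-85584589, plus strand) was at 1129.7, 1105, 1149.9, 1124 and 1165.5 CPM in T24 replicates 1 to 5 and at 613, 639, 571, 581 and 576 CPM in T24R2. The lines were far apart relative to their spread. The means were 1135 ± 23.3 and 596 ± 29.3 CPM (SD, n = 5), a log2 fold change of -0.93 (SE 0.04, edgeR adjusted p = 1.32e-22). CCN2 (CTGF, ENSG00000118523.6, chr6:131948176-131951372, minus strand) was at 383, 427, 408.5, 394 and 419 CPM in T24 and at 318, 336, 324, 309 and 298 CPM in T24R2. Its ranges did not overlap either, but its log2 fold change of -0.36 (95% interval -0.45 to -0.27, adjusted p = 1.98e-09) did not pass the minimum. Of its exon bases, 8.34% lie under an antisense gene (ENSG00000227220.1) that did not differ detectably between the lines (log2 fold change 0.08, SE 0.10, adjusted p = 0.488). With that gene's counts taken off, the log2 ratio of mean CPM for CCN2 was -0.42. The log2 ratio of CCN2 to CCN1 per kilobase was -0.82 ± 0.07 in T24 and -0.25 ± 0.05 in T24R2 (exact two-sided permutation test, p = 0.00794).

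ANKRD1, a nuclear ankyrin repeat protein induced by stretch and injury in muscle, showed the largest change of the 10 genes. ANKRD1 (ENSG00000148677.7, chr10:90912096-90921087, minus strand) was at 125, 119.8, 122, 122 and 122 CPM in T24 replicates 1 to 5 and at 5.41, 4.85, 2.88, 5.88 and 3.44 CPM in T24R2. The T24R2 level was 3.68% of the T24 level, from 1067 to 1204 counts per T24 library and 30 to 66 per T24R2 library, so the gene stayed detectable in each T24R2 library. The means were 122 ± 1.84 and 4.49 ± 1.29 CPM (SD, n = 5), a log2 fold change of -4.75 (SE 0.09, edgeR adjusted p = 1.02e-34). No gene on the opposite strand overlaps its exons. Its 95% interval of -4.94 to -4.56 was derived from the test statistic and may be too narrow for the spread of its T24R2 libraries. The log2 fold change of ANKRD1 still lay well outside the intervals of CCN1 (-1.01 to -0.85) and CCN2, which are known as targets of the same factors.

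The 250 bases before the transcription starts of CCN2 and ANKRD1 are shown because TEADs are known to act through promoter sites in these genes, and because the pair differed widely in change (-0.36 and -4.75 on the log2 scale). They come from RefSeq (GRCh38.p14) and read 5′ to 3′ on the gene's own strand, the minus strand for both, with GGAATG, the core letters that TEADs recognise, in capitals. The CCN2 window is chr6:131951373-131951622 and the ANKRD1 window chr10:90921088-90921337.
CCN2: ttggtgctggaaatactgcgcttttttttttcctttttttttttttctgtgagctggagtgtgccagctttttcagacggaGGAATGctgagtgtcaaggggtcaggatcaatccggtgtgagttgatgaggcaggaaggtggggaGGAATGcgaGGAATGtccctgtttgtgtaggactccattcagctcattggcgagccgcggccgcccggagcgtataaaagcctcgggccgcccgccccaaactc
ANKRD1: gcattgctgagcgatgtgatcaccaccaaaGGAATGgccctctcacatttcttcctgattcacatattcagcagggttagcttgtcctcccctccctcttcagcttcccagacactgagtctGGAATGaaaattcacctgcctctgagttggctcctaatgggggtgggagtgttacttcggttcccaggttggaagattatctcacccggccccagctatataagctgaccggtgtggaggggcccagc

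CCN2 has 3 matches in this window, at 169 to 164, 104 to 99 and 95 to 90 bases before the start, and ANKRD1 has 2, at 220 to 215 and 128 to 123 bases. ANKRD1 also has the AP-1 motif TGANTCA once, at 195 to 189 bases before the start. The search allowed any base at N, and the base there is T. Both strands of the window were searched.

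AMOTL2 and LATS2 are targets that feed back on the pathway. AMOTL2, a scaffold that holds YAP at junctions, differed little between the lines, whereas LATS2, a kinase that phosphorylates YAP and TAZ, fell. AMOTL2 (ENSG00000114019.15, chr3:134355347-134375479, minus strand) was at 166, 164, 165, 151 and 160.4 CPM in T24 replicates 1 to 5 and at 153, 147, 153, 154 and 153 CPM in T24R2. The ranges overlapped. The log2 fold change was -0.08 (95% interval -0.18 to 0.01, edgeR adjusted p = 0.0881) with TMM scaling and 0.08 with no scaling beyond library size, and an exact two-sided permutation test of the CPM values gave p = 0.0397. LATS2 (ENSG00000150457.9, chr13:20973036-21061586, minus strand) was at 42.9, 50.5, 44.6, 53.0 and 52.1 CPM in T24 and at 27.3, 23.1, 24.4, 23.7 and 31.8 CPM in T24R2. Every T24R2 library was under every T24 library. The means were 48.6 ± 4.59 and 26.0 ± 3.56 CPM (SD, n = 5), a log2 fold change of -0.90 (SE 0.08, adjusted p = 1.2e-12).

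Each of these genes has a paralog outside the 10, and the pairs changed their balance in opposite ways. LATS1, the other LATS kinase, rose from 27.0 ± 2.63 to 45.8 ± 4.37 CPM (log2 fold change 0.76, edgeR adjusted p = 3.42e-11). The log2 ratio of LATS2 to LATS1 per kilobase was 1.445 ± 0.22 in T24 and -0.22 ± 0.22 in T24R2, so that LATS2 was 2.72 times LATS1 in T24 and 0.857 times in T24R2. AMOTL1, the other AMOT-like scaffold, fell from 155 ± 5.41 to 47.3 ± 1.27 CPM (-1.71, adjusted p = 2.66e-28). AMOTL2 was 1.61 times AMOTL1 per kilobase in T24 and 4.98 times in T24R2 (log2 ratios of 0.69 ± 0.10 and 2.32 ± 0.02; SD, n = 5). Of the 5 ratios compared within libraries, all 5 were separated between the lines, each with an exact two-sided permutation p of 0.00794 that stayed at 0.00794 after adjustment over the 5. Such separation was common, since 61.2% of all tested genes were separated singly, and the share for ratios of other gene pairs was not computed. For WWTR1:YAP1 and LATS2:LATS1 it followed from the single genes, which were separated in opposite directions. The plot of the 5 ratios shows that the order per kilobase of annotated exon turned over for TEAD4 and TEAD1 in every library. For LATS2 and LATS1 it did so in 4 of 5 T24R2 libraries.

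**Figure D2:**
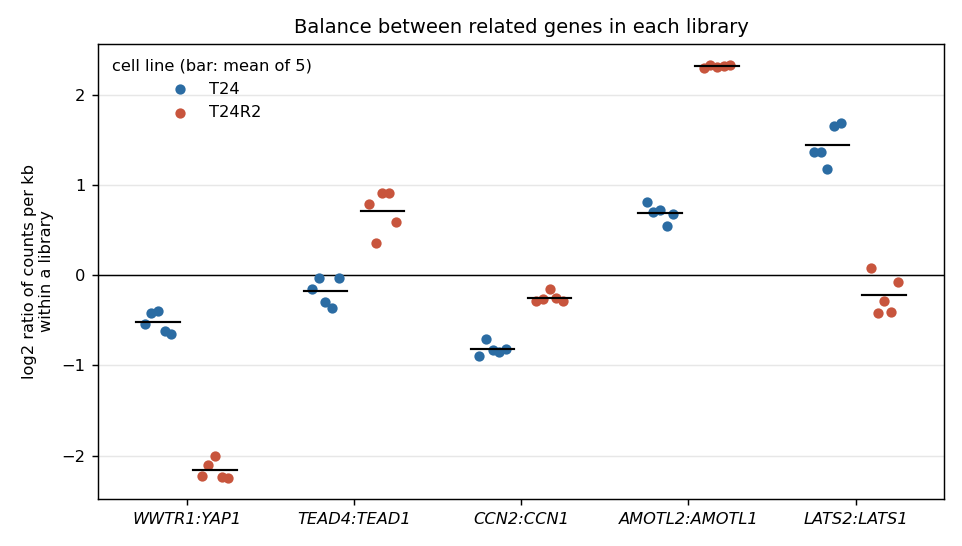
Log2 ratio of counts per kb between related genes within each library, for T24 (blue) and T24R2 (red). Bars mark the mean of 5 libraries, and a value of 0 means equal counts per kb of annotated exon. TEAD4:TEAD1 moves from -0.18 to 0.71 and LATS2:LATS1 from 1.445 to -0.22, while WWTR1:YAP1 falls from -0.52 to -2.16.

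CRIM1, a membrane protein with cysteine-rich repeats that binds bone morphogenetic proteins, was the one gene of the 10 called higher. CRIM1 (ENSG00000150938.10, chr2:36355778-36551135, plus strand) was at 260.0, 268, 278, 283 and 286 CPM in T24 replicates 1 to 5 and at 464, 477, 493, 485 and 476 CPM in T24R2. The lines did not overlap, and the T24R2 level was 174% of the T24 level. The means were 275 ± 10.98 and 479 ± 10.96 CPM (SD, n = 5), a log2 fold change of 0.80 (SE 0.04, edgeR adjusted p = 4.21e-20). An antisense gene covers 2.43% of its exon bases. With the counts of that gene taken off the log2 ratio of mean CPM was 0.78.

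Per kilobase of exon, CCN1 was the most abundant of the 10 genes in both lines, at 306.9 ± 6.30 CPM per kb in T24 and 161 ± 7.92 in T24R2, and CCN2 came next, at 174 ± 7.70 and 136 ± 6.24 (SD, n = 5). In T24 the order went on with ANKRD1 (68.2), CRIM1 (37.8), YAP1 (32.9), AMOTL2 (24.9), WWTR1 (22.9), TEAD1 (19.6), TEAD4 (17.4) and LATS2 (8.66). The libraries of AMOTL2 and WWTR1 overlapped in T24, as did those of WWTR1 and TEAD1; all other neighbours in the order were separate. In T24R2 the order after CCN2 was CRIM1 (65.9), YAP1 (39.7), AMOTL2 (23.5), TEAD4 (14.6), TEAD1 (8.88), WWTR1 (8.87), LATS2 (4.64) and ANKRD1 (2.51), and only TEAD1 and WWTR1 overlapped. ANKRD1 went from the third place to the last.

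**Figure D3:**
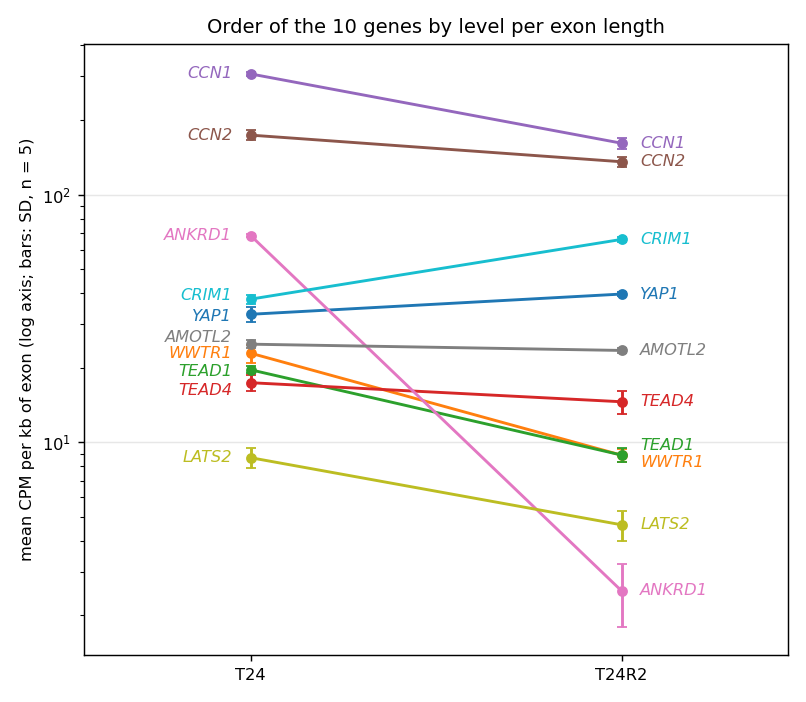
Mean CPM per kb of exon (log axis) of the 10 genes in T24 and T24R2, with SD over 5 libraries; lines join the values of a gene. The ANKRD1 line runs down through the others, from 68.2 to 2.51 CPM per kb, and TEAD1 and WWTR1 end together at 8.88 and 8.87 in T24R2.

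The other targets were taken from a 22-gene YAP/TAZ target signature, in which CCN1, CCN2, ANKRD1, AMOTL2, LATS2 and CRIM1 are 6 genes. All of the other 16 were tested, and 6 were called higher, 6 lower and 4 (MYOF, DOCK5, ARHGEF17 and NUAK2) were not called, with a median log2 fold change of -0.16. Over the whole signature 7 were called higher, 9 lower and 6 not, with a median of -0.26 against 0.01 over all tested genes. The targets thus went both ways. The ranges of 19 of the 22 did not overlap between the lines, as was so for 61.2% of all tested genes, of which 51.4% were called in either direction.

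IGFBP3, a secreted protein that binds insulin-like growth factors, fell from 247 ± 34.2 to 4.598 ± 0.81 CPM, a log2 fold change of -5.74 (SE 0.10, edgeR adjusted p = 5.7e-37). It was the only one of the other 16 targets to fall by more than ANKRD1. The secreted kinase relative FJX1 fell from 50.4 to 13.9 CPM (-1.86), F3, the tissue factor that starts coagulation, from 976 to 313 CPM (-1.64), and GADD45A, a gene of the DNA damage response, from 169 to 70.2 CPM (-1.26). AXL and PTPN14 were also called lower. In the other direction, the forkhead factor FOXF2 rose from 1.90 ± 0.39 to 10.5 ± 0.74 CPM (2.46, adjusted p = 1.32e-15). CCDC80, a matrix protein, rose from 15.5 to 39.2 CPM (1.34), RBMS3, an RNA-binding protein, from 26.4 to 55.5 CPM (1.07), and NT5E (CD73), which makes adenosine at the cell surface, from 138 to 269.55 CPM (0.97). TGFB2 and ASAP1 were also called higher. Of the exon bases of TGFB2, 11.4% lie under genes on the opposite strand and 22.7% are shared with genes on the same strand. The largest rise among the genes listed here was outside the signature: CCN3, a paralog of CCN1 and CCN2, had 1 to 6 counts per T24 library and 183 to 236 per T24R2 library (0.300 ± 0.21 and 18.8 ± 2.19 CPM, log2 fold change 5.90, SE 0.23, adjusted p = 3.09e-24). CCN4, CCN5 and CCN6 had at most 6 counts in any library and were not tested.

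**Figure D4:**
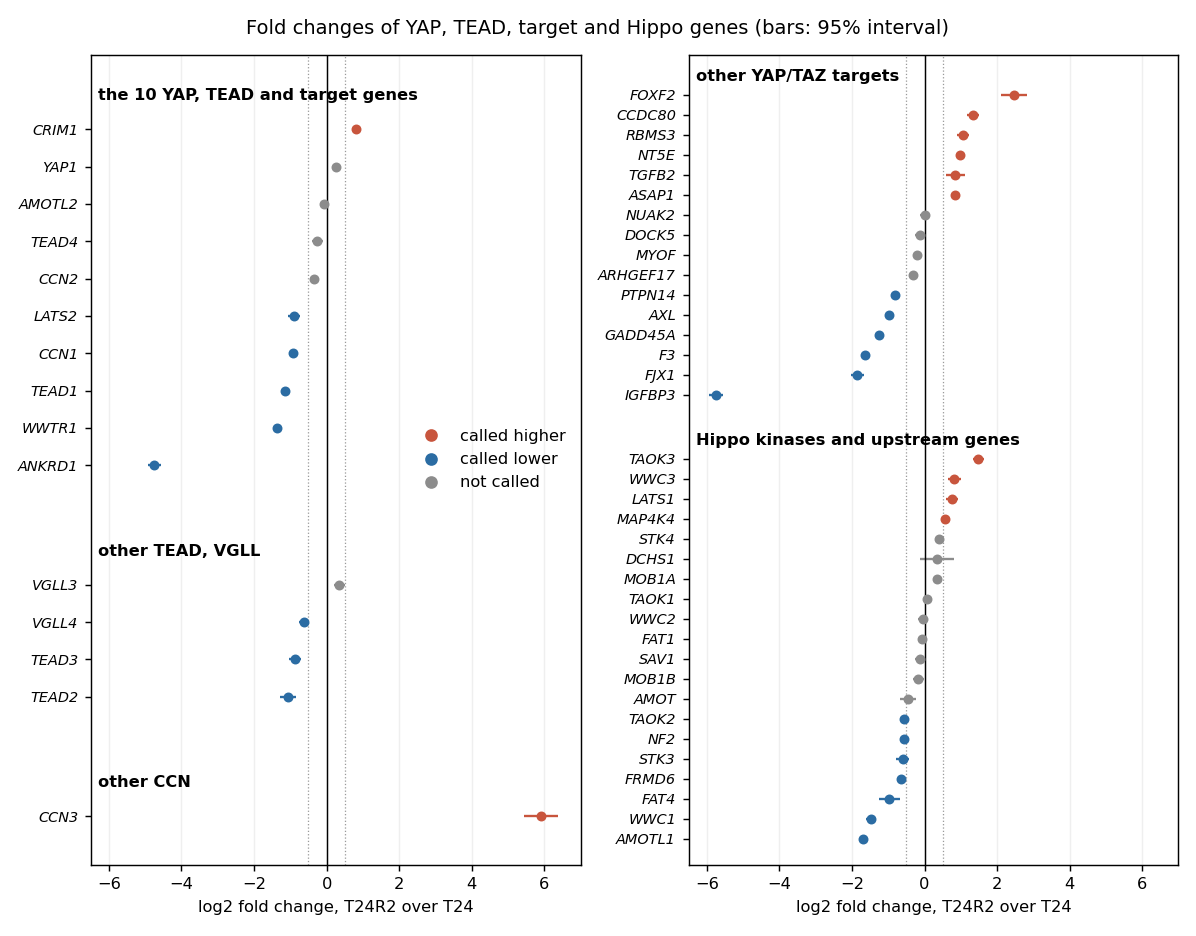
Log2 fold change of T24R2 over T24 with 95% intervals for the 10 genes, the other TEAD, VGLL and CCN genes (left), and the other YAP/TAZ targets and Hippo genes (right); dotted lines mark 0.5 in either direction and colours the calls. Values run from -5.74 for IGFBP3 to 5.90 for CCN3, with TMM scaling. Intervals were derived from the test statistic and can be too narrow where the change is large. The CCN3 interval is narrower than counting error alone allows at its few T24 counts. AMOTL2 lies at -0.08 and turns to 0.08 with no scaling beyond library size.

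Of 20 genes for Hippo kinases, their adaptors and upstream regulators, all 20 were tested. With TMM scaling 4 were called higher and 7 lower, with a median log2 fold change of -0.10; with no scaling beyond library size 7 were called higher and 3 lower. The same change of scaling moved all tested genes, from 24.9% higher and 26.5% lower to 32.2% higher and 21.2% lower. TAOK3, a kinase that can activate MST kinases, rose from 28.9 ± 3.64 to 80.7 ± 4.35 CPM (1.48, edgeR adjusted p = 1.64e-21). WWC3, a scaffold, rose from 15.5 to 27.4 CPM (0.82), and the kinase MAP4K4 rose from 495 to 727 CPM (0.55), with LATS1 as the fourth. Next to AMOTL1, the genes that fell most were WWC1 (KIBRA), a scaffold for the kinases, from 88.0 ± 7.36 to 31.6 ± 3.04 CPM (-1.48, adjusted p = 8.26e-22), and the protocadherin FAT4, from 12.3 to 6.22 CPM (-0.98). FRMD6, a relative of merlin, fell from 179 to 115 CPM (-0.64). STK3 (MST2), NF2 (merlin) and TAOK2 were also called lower, with log2 fold changes of -0.60, -0.58 and -0.56. These 4 calls were lost with no scaling, at -0.47 for FRMD6, -0.44 for STK3, -0.41 for NF2 and -0.39 for TAOK2, while STK4 (MST1), MOB1A and DCHS1 were then called higher, at 0.56, 0.51 and 0.51.

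The table of promoters used held 6 of the 10 genes (YAP1, WWTR1, CCN2, ANKRD1, AMOTL2 and LATS2) and 12 of the other 16 targets. GGAATG was found on either strand in 3 of the 6, CCN2, ANKRD1 and YAP1, the last at 162 to 157 bases before its start. It was also found in 4 of the 12 other targets (FOXF2, PTPN14, NUAK2 and TGFB2), and in 11.9% of all 35116 promoters of the same length. The AP-1 motif TGANTCA was in ANKRD1 alone of the 6 and in F3, with 2 matches, alone of the 12, against 6.57% of all promoters. The CArG box, the motif of serum response factor, was in 0 of the 6 and 0 of the 12, and in 1.16% of all promoters. The motif was present both in genes that rose (FOXF2 and TGFB2), in genes that fell (ANKRD1 and PTPN14) and in genes not called (YAP1, CCN2 and NUAK2). The RefSeq start used does not lie at the start of the counted gene for WWTR1 (33441 bases away), AMOTL2 (62), RBMS3 (706280), CCDC80 (8387), PTPN14 (847), IGFBP3 (602) and NT5E (499), so their windows are those of an internal start.

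**Figure D5:**
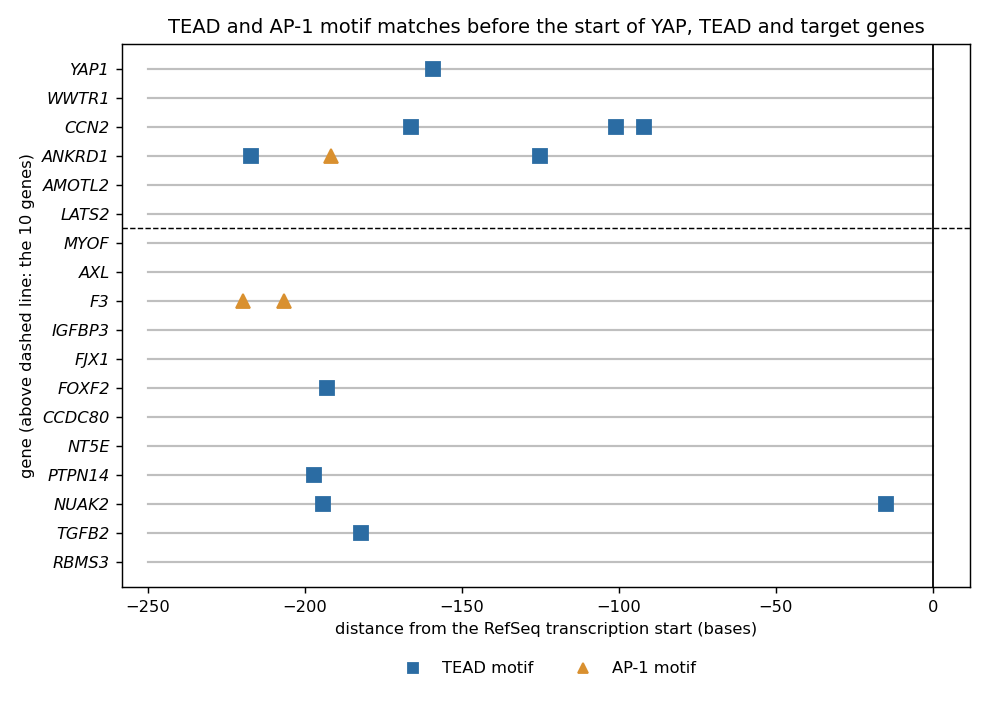
Position of each GGAATG (TEAD, square) and TGANTCA (AP-1, triangle) match in the 250 bases before the RefSeq start, in bases from the start, for 6 of the 10 genes and 12 other targets. CCN2 holds 3 TEAD matches and ANKRD1 2 with an AP-1 match between them.

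The nearest tested genes on either side of each of the 10, without those overlapping it, gave 20 neighbours. Of these, 4 were called higher, 8 lower and 8 not. Their distances ran from 0.761 kb (ENSG00000250899, beside TEAD4) to 2756.4 kb (FAM98A, beside CRIM1), so some are not close. Of the 12 neighbours of the called genes, 6 had the same call as the gene beside them; over all tested genes 24.9% were called higher and 26.5% lower. The neighbours of ANKRD1 were RPP30, 3.54 kb away, and PCGF5, with log2 fold changes of -0.29 and -0.26, and neither was called. Both neighbours of WWTR1 were called lower, TM4SF1 at -2.16 and COMMD2 at -0.56. Beside TEAD1, LINC00958 was called lower (-1.68) and PARVA was not (-0.39). Beside CCN1, DDAH1 was called lower (-0.51) and ZNHIT6 was not (0.13), and beside LATS2, SAP18 was called lower (-0.54) and XPO4 was not (0.09). Beside CRIM1, STRN was called higher (0.52) and FAM98A was not (-0.18). The genes not called had neighbours that were: CCN2 lies between ENPP1 (2.45) and MOXD1 (0.54), both higher, TEAD4 between TULP3 (0.51, higher) and ENSG00000250899 (-0.64, lower), and AMOTL2 beside ANAPC13 (-0.53, lower) and RYK (-0.20, not called). Next to YAP1, CFAP300 had 43 to 72 counts per T24 library and at most 1 per T24R2 library, at least 22.2-fold lower against a floor of 3 counts per library, and ENSG00000288528 did not differ detectably (0.02, SE 0.20).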

How the data were processed

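Per the file headers and the labels, the authors aligned paired-end reads to hg38 with STAR 2.7.0, used SAMtools 1.10 and counted reads per gene of GENCODE 39 with featureCounts 2.0.1 (strand option 1). The study's methods used SAMtools to drop duplicates and reads that did not map uniquely, and the effect of this on levels was not tested. The deposited values are raw counts, 1 table per library, with no normalization. The genes reported here and the lists beside them were chosen with earlier results of these data known.

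Counts of the 10 libraries were joined by identifier; 61369 of 61533 genes had a symbol. Genes with too few reads by edgeR's default filter were left out, and 16181 were fitted with the line as the only term by edgeR 4.0.16 (TMM scaling, quasi-likelihood test, common biological coefficient of variation 6.61%). The script was tested on simulated data. Ratios and CPM of single genes used exact two-sided permutation tests over libraries, where 5 against 5 cannot go below p = 0.00794. No 2 libraries were identical.

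Named genes were all 10, all other TEAD and VGLL genes, up to 4 rising and 4 falling called genes of each other list with at least 1 CPM in a line, list genes with no more than 3 counts per library in just 1 of the lines, LATS1 and AMOTL1, and the nearest tested and the overlapping genes. Others named in counts were chosen after their values were seen. Motifs were searched in RefSeq promoters (GRCh38.p14). Alternatives were other scalings, DESeq2 1.42.0, limma 3.58.1, other filters and minimums, a replicate block, genes without opposite-strand overlap and each library left out.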

Additional observations from a re-analysis of the deposited data

Results flagged for a closer look

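Each gene's CPM and each within-library ratio was checked for a library standing apart from the others of its line by Dixon's test, 30 comparisons in all, of which chance alone would give about 1.5. A single library stood apart in 2. AMOTL2 was at 146.94 CPM in T24R2 replicate 2, against 152.81 to 153.96 CPM in the other 4 T24R2 libraries. The log2 ratio of CCN2 to CCN1 per kilobase was -0.1541 in T24R2 replicate 3, against -0.28865 to -0.25055 in the others; the lines differed by 0.57 in this log2 ratio with all libraries and by 0.55 without that one. The calls of AMOTL2, CCN1 and CCN2 did not change when either library was left out.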

How the results depend on the processing

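The calls of the 10 genes were recomputed with each library left out in turn, and none changed; the log2 fold change then ran from -1.41 to -1.33 for WWTR1, -1.18 to -1.12 for TEAD1, -0.95 to -0.91 for CCN1, -4.86 to -4.62 for ANKRD1, -0.98 to -0.85 for LATS2 and 0.78 to 0.82 for CRIM1. DESeq2 and limma-voom gave the same 1 higher and 5 lower among the 10. With no scaling beyond library size, AMOTL2 was at 0.079 (adjusted p = 0.0983), 7 Hippo genes were called higher and 3 lower, and 1 of the other TEAD and VGLL genes was called higher. When only genes averaging 100 counts or more were tested, which are fewer, 2350 genes were called higher and 2641 lower. Without genes that share over 10% of exon bases with the opposite strand, 1 of the other TEAD and VGLL genes was called lower, since TEAD2 and VGLL4 are then left out. With a minimum log2 fold change of 1, 1918 genes were called higher and 2293 lower, 0 and 3 of the 10 genes, 1 and 2 Hippo genes, 3 of the other targets higher, and 1 of the other TEAD and VGLL genes lower. With no minimum, 6128 genes were called higher, with 2 of the 10 and 1 of the other TEAD and VGLL genes. All other counts stayed within 1.5 times their main value. Replicate numbers are shared by the lines. Deviations of same-numbered libraries correlated at 0.00503 to 0.0662, and a library matched best with its own number only for replicate 1. No pairing by number was thus seen, but weak correlations cannot exclude that libraries were prepared in pairs. With a replicate block 3979 genes were called higher and 4261 lower, and the 10 genes gave 1 and 5.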
